A study of Mus musculus with 8 samples.

Results

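The nuclear genes of oxidative phosphorylation were examined by complex in the embryonic mouse heart after cardiomyocyte deletion of Pkn2, which encodes a serine/threonine kinase. Members were chosen by symbol alone, from the naming roots of the subunits (Ndufa, Ndufb, Ndufc, Ndufs and Ndufv with a number, Sdha to Sdhd, Uqcr, Cyc1, Cox4 to Cox8 and Atp5), with pseudogene symbols left out and a total of at least 8 counts. This gave 88 of the 26820 genes tested, from a table of 55291 symbols: 38 of complex I, 4 of complex II, 9 of complex III, 20 of complex IV and 17 of complex V. Ndufa4 and Ndufa4l2 are named after complex I, and were counted with complex IV, to which their proteins are known to belong. The rule left out Ndufb1-ps with 30164 counts, Ndufa12-ps with 17618 and Cox5b-ps with 6735, and Cox8c was listed at 0 in all libraries.

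Oxidative phosphorylation makes ATP on the inner mitochondrial membrane. Complex I takes electrons from NADH and complex II from succinate, complex III passes them from ubiquinol to cytochrome c, complex IV hands them to oxygen, and the proton gradient built on the way drives ATP synthase, complex V. Most subunits are encoded in the nucleus, while the mitochondrial genome encodes membrane-embedded subunits of complexes I, III, IV and V. Several complex IV subunits have a heart and skeletal muscle isoform that takes over from the common isoform as striated muscle matures, and the embryonic heart passes from a glycolytic toward an oxidative metabolism as it grows.

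Bulk poly(A) RNA was sequenced from ventricular tissue of embryos at E10.5, in 4 libraries of cKO embryos (Pkn2 fl/fl with the XMLC2-Cre transgene, which recombines in cardiomyocytes) and 4 of littermates that were Pkn2 fl/fl and Cre-negative. Both groups therefore carried the floxed alleles, and only the cKO group carried Cre, so that an effect of Cre itself and one of the deletion cannot be told apart. Mice were on a C57BL/6N background (the labels give the strain as C57BL/6), with no other treatment. Pkn2 was measured at 83.1, 77.6, 79.6 and 84.3 CPM (counts scaled to library size) in cKO libraries 1 to 4 and at 133, 139, 152 and 153 CPM in control libraries 1 to 4. It stood at 56.3% of the control mean, with a log2 fold change of −0.83 (SE 0.060, adjusted p = 7.67e-06), in a tissue that also holds cells without Cre. In the floxed allele Cre removes 1 exon, while the counts are per gene. The 56.3% therefore does not measure how complete the deletion was.

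Libraries held between 47559845 and 56660938 counts, and the 88 genes took 1.92% to 2.17% of them in cKO and 2.06% to 2.19% in controls. Replicates are described as biological, 4 per group. Libraries of a group differed by more than counting error, with a chi-square per degree of freedom of 10.97 to 35.25 over the 12 pairs. Within each group 1 library stood above the rest for these genes: cKO 3 was the highest cKO library for 63 of the 88 genes, and control 1 the highest control library for 60. Control 1 was the highest of all 8 libraries for 43 genes, and cKO 4 the lowest for 34. Beside the results below, values are therefore also given without these libraries where they change.

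Members were expressed at high levels. In TPM, which scale reads to transcript length and library size and so allow genes to be compared, the median member of complex I stood at 226, of complex II at 379, of complex III at 429, of complex IV at 484 and of complex V at 664 over the 8 libraries. Atp5b, the catalytic beta subunit of ATP synthase, had the highest level at 2650.5 TPM, rank 37 among all genes with a single TPM entry. It was followed in complex V by Atp5a1 (the alpha subunit) at 1673 TPM. Cox4i1 led complex IV at 1234 TPM and Uqcrh, the hinge protein of complex III, led its complex at 1051 TPM. Complex I and complex II genes lay lower, with Ndufb8 at 557 TPM and Sdhd at 457 TPM as their highest. At the low end stood copies and isoforms: Cox7b2 with 14 counts in all, Ndufa11b with 32 and Ndufb4c with 94. Ndufb4c had at most 0.373 CPM in any library and yet a mean of 42.6 TPM in cKO, so that the count and TPM tables disagree on this copy of Ndufb4 and its level is uncertain.

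**Figure D1:**
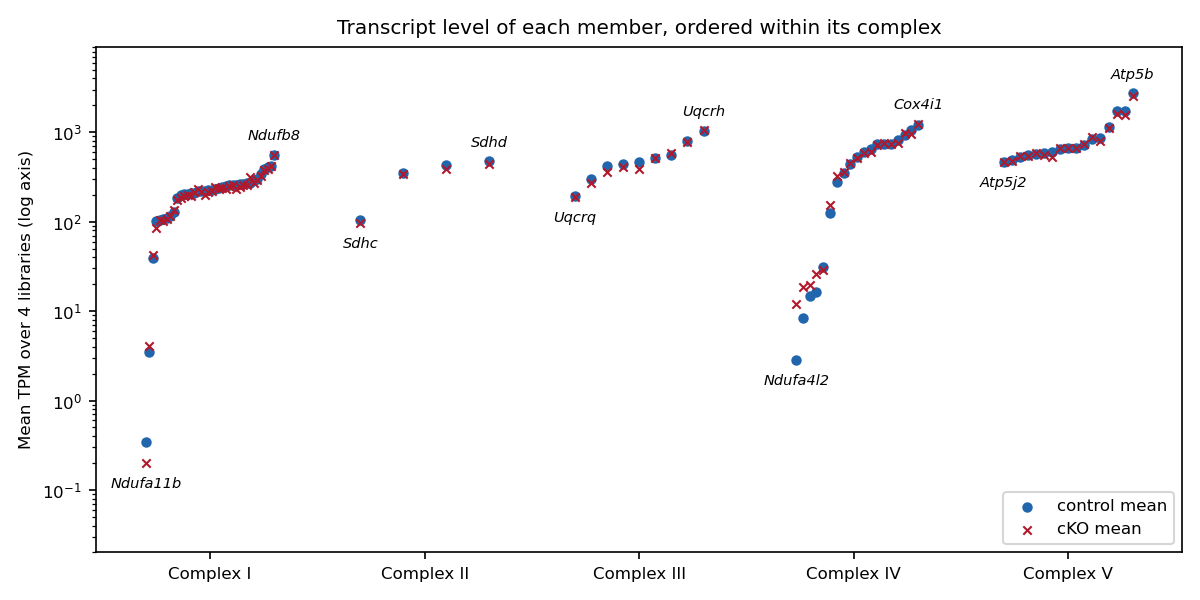
Mean TPM of each member over the 4 control (blue points) and 4 cKO libraries (red crosses) on a log axis, ordered within its complex by the control mean. Cox7b2, at 0 in cKO, is not drawn. Both means lie close together for most members, and the widest gaps are among the low members of complex IV, down to Ndufa4l2 at 2.86 TPM in controls and 11.99 TPM in cKO.

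Promoter sequences are shown for members that the results turn on: Uqcrc1, which passed the adjusted threshold; Sdha and Sdhd from the complex with the lowest median; Atp5g3, the lowest of complex V; and the muscle isoforms Cox7a1 and Cox8b, which were higher in cKO. Each runs from 130 bases before to 30 bases after the annotated start, read 5′ to 3′ on the gene's strand, from RefSeq on GRCm38.p6. Capitals mark matches, on either strand, to the letters GCGC, any base, TGCGC (nuclear respiratory factor 1, NRF1), CCGGAAG (GABPA, also known as nuclear respiratory factor 2) or AAGGTCA (estrogen-related receptors), which are factors known to regulate respiratory genes. The regions are chr9:108936518-108936677 on the plus strand for Uqcrc1, chr13:74350211-74350370 on the minus strand for Sdha, chr9:50603820-50603979 on the minus strand for Sdhd, chr2:73911297-73911456 on the minus strand for Atp5g3, chr7:30184041-30184200 on the plus strand for Cox7a1 and chr7:140900417-140900576 on the minus strand for Cox8b.
Uqcrc1: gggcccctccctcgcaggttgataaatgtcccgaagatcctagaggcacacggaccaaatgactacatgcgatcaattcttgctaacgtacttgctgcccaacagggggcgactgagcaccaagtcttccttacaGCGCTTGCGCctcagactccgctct
Sdha: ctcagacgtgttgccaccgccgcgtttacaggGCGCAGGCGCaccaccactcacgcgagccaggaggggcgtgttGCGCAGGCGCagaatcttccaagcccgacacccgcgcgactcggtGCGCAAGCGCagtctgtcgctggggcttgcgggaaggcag
Sdhd: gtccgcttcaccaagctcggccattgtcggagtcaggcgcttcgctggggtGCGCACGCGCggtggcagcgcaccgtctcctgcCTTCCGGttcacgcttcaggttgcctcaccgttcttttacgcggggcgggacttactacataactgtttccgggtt
Atp5g3: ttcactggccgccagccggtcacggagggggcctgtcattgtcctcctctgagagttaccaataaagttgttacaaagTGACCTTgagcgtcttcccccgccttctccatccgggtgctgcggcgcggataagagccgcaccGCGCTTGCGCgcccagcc
Cox7a1: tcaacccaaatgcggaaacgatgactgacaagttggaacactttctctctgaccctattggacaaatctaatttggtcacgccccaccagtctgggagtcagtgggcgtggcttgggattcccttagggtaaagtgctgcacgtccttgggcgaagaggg
Cox8b: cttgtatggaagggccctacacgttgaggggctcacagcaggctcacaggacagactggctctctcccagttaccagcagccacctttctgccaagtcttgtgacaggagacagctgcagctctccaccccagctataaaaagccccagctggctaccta

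Sdha held 3 NRF1 matches in this stretch, at −98 to −89, −55 to −46 and −10 to −1 from the start. Sdhd held an NRF1 match at −79 to −70 and a GABPA match at −46 to −40. Atp5g3 held an estrogen-related receptor match at −52 to −46 and an NRF1 match at 13 to 22, and Uqcrc1 an NRF1 match at 6 to 15. Cox7a1 and Cox8b held no match to these letters. Over the 68 members with a RefSeq window, taken as 250 bases before to 50 after the start, 17 (25.0%) held the NRF1 letters against 5.19% of the 27025 genes with a window, 17 (25.0%) the GABPA letters against 9.93%, and 8 (11.8%) the estrogen-related receptor letters against 5.38%. The letters AAGATGGCG of YY1 stood in 7 (10.3%) against 1.64%, those of MEF2 (CTA, any 4 bases, TAG) in 1 (1.47%) against 4.23%, and the hypoxia response letters ACGTG in 17 (25.0%) against 21.8%. None of these strings contains another. In complex V, 6 of 15 windows held NRF1 and 6 of 15 GABPA. Of the 7 tissue isoforms of complex IV, 4 had a window (Cox6b2, Cox7a1, Cox7b2 and Cox8b). Among these 4, 0 held NRF1, GABPA, YY1 or estrogen-related receptor letters, and 2 (Cox7a1 and Cox8b) held the hypoxia response letters. With 4 windows and the shares over all genes given above, these counts cannot set the isoforms apart from other genes. The printed genes do not stand for all members. The windows of Uqcrfs1, Sdhb, Ndufs3 and Ndufs7, also with lower estimates in cKO, held 0 NRF1 matches. That of Uqcrfs1 held 0 GABPA, YY1 or estrogen-related receptor matches as well, while Atp5h, with a slightly higher estimate, held 1 NRF1 match. Whether matches go with the direction of change was not tested. These are matches of letters, and whether a factor binds there was not measured.

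Most members were slightly lower in cKO, and few differed beyond the spread between libraries. Of the 88 genes, 68 had a lower and 20 a higher estimate, with a median log2 fold change of −0.06, where 50.2% of all 26820 genes were lower (median −0.00) and 60.5% of the 8002 genes with a mean of at least 20 CPM were (median −0.03). By the quasi-likelihood test of edgeR, with p adjusted over all genes after Benjamini and Hochberg, 1 of the 88 fell at an adjusted p of at most 0.05, Uqcrc1, and 0 rose, while DESeq2 called 5 (Cyc1, Uqcrc1 and Uqcrfs1 lower, Cox7a1 and Cox8b higher). The background was 0.858% of all genes called by edgeR, 0.343% lower and 0.515% higher, and 3.23% by DESeq2, 1.29% lower and 1.94% higher. An unadjusted p under 0.05 was found for 22 members, 16 lower and 6 higher, against 12.8% of all genes (6.20% lower and 6.61% higher) and 20.7% of those with a mean of at least 20 CPM (12.1% lower and 8.54% higher). The cKO libraries lay wholly below the controls for 8 of the 88 members and wholly above for 4. The background was 3.77% below and 3.14% above over all genes, and 7.76% below and 3.86% above over genes with a mean of at least 20 CPM, so that the members' count below lay near that of genes of high level. The shares in this paragraph are also the background for the counts by complex and by list given further on.

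These counts depended on single libraries. Left out in turn, the libraries gave 55 to 76 members with a lower estimate, with 55 without control 1 and 76 without cKO 3. The 22 members with an unadjusted p under 0.05 became 36 without cKO 3, 13 without cKO 1, 13 without cKO 4 and 14 without control 1. Without cKO 3, 6 members were called (Ndufs3, Cyc1, Uqcrc1, Uqcrfs1 and Atp5g3 lower, Cox8b higher), and the call of Uqcrc1 held without cKO 4 and was lost without any of the other 6 libraries. The number of calls over all genes moved as well, from 230 to 744 without cKO 3, and to 71 without cKO 1, 67 without control 1, 135 without control 2, 87 without control 3 and 69 without control 4.

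**Figure D2:**
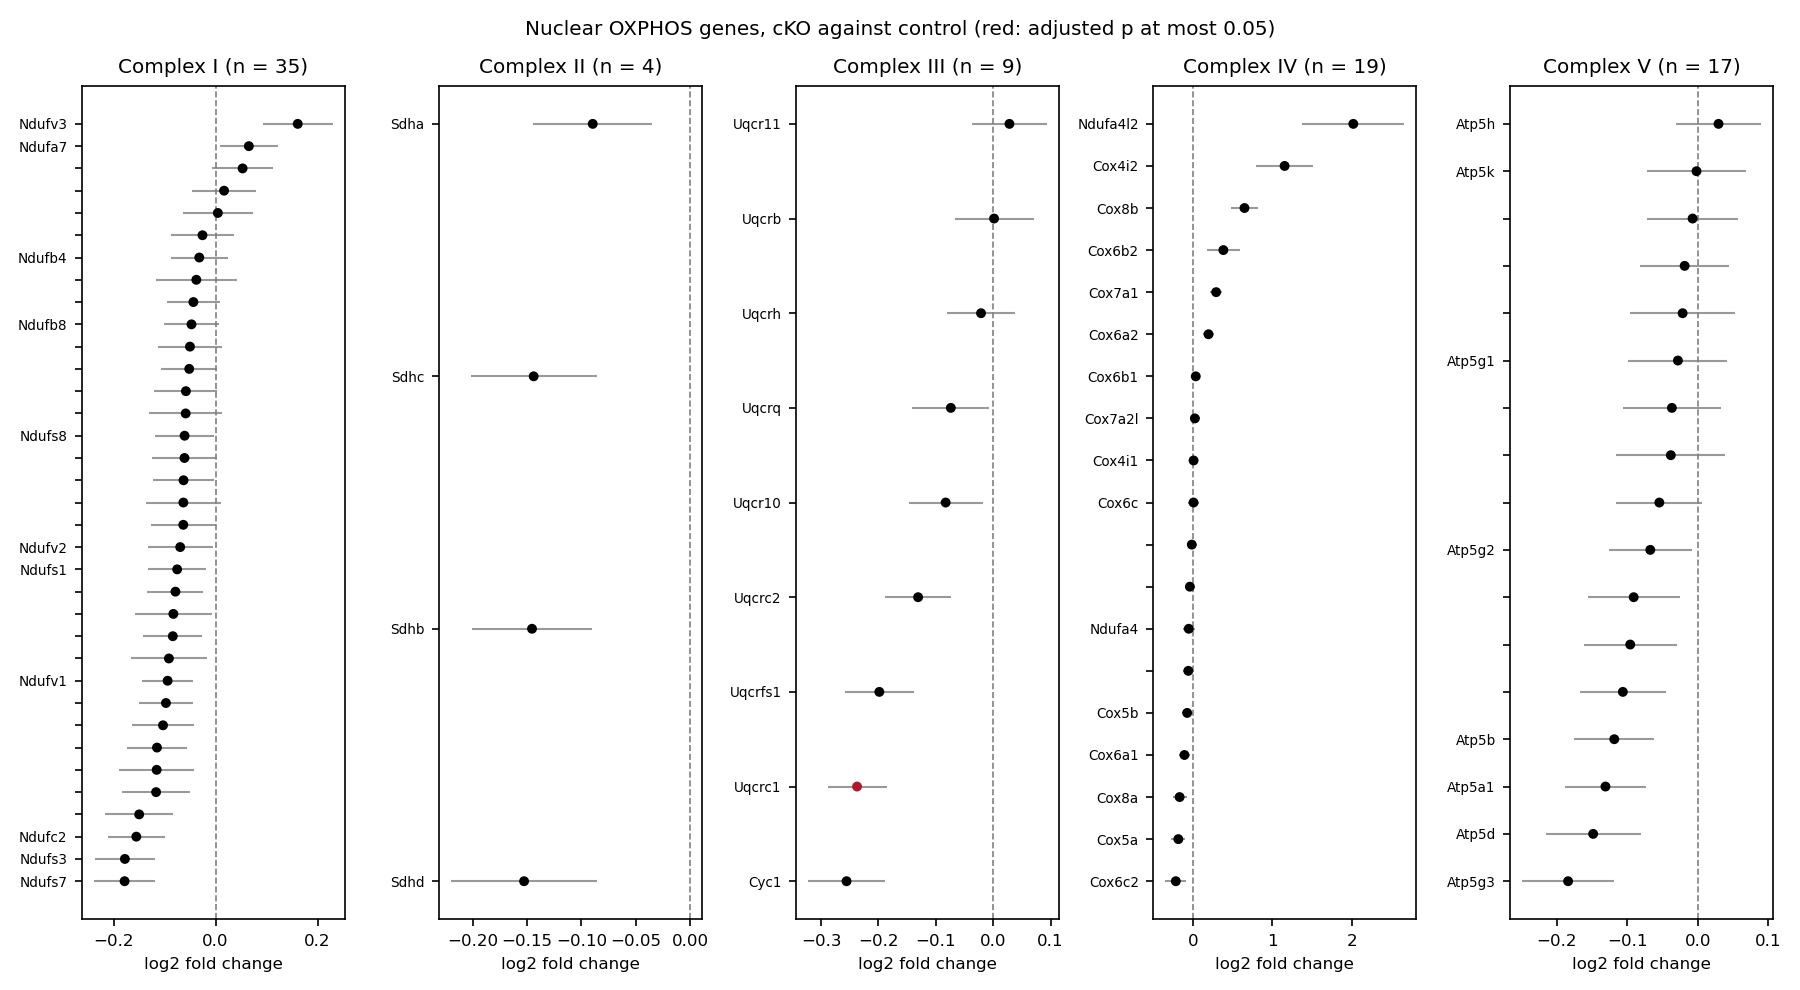
Log2 fold change of cKO against control (horizontal axis, with its own range in each panel) with its standard error for the 84 members with a mean of at least 1 CPM, by complex, with symbols for genes named in the text. Points left of the dashed line are lower in cKO, as 30 of 35 in complex I, 4 of 4 in complex II and 16 of 17 in complex V are. Uqcrc1 (red) is the member past the adjusted threshold, and complex IV reaches 2.02 to the right with Ndufa4l2.

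The level of each complex within each library showed how much of this was shared. Expressed as the median over the members of log2 CPM relative to the control mean, the 88 genes stood at −0.10, −0.09, 0.04 and −0.12 in cKO 1 to 4 and at 0.09, −0.06, −0.06 and 0.03 in control 1 to 4. cKO 3 lay above controls 2 and 3, so the groups overlapped for the members as a whole. Complex II came nearest to separation, with −0.20, −0.14, −0.01 and −0.20 in cKO against 0.03, −0.02, −0.02 and 0.01 in controls. Complex IV did not separate at all, with −0.03, −0.06, 0.08 and −0.02 in cKO against 0.10, −0.04, −0.08 and 0.03.

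**Figure D3:**
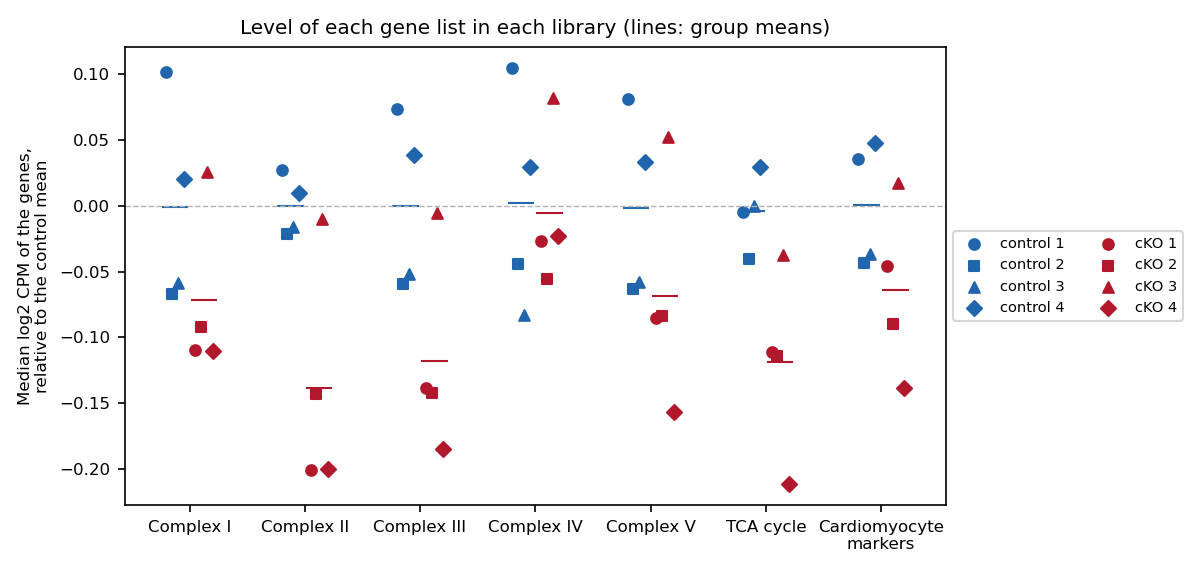
Median log2 CPM of the genes of each complex, of the citric acid cycle and of cardiomyocyte markers in each library, relative to the control mean (vertical axis), with the 4 control libraries in blue, the 4 cKO libraries in red and group means as lines. cKO 3 (red triangle) is the highest cKO library in all 7 lists, and control 1 (blue circle) the highest control library in each of the 5 complexes.

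Complex III held the clearest decreases, in the subunits of its main body. Uqcrc1 (ENSMUSG00000025651, chr9:108936633-108949623 on GRCm38, plus strand), a large matrix-facing core protein, was measured at 308, 319.8, 329.9 and 322 CPM in cKO 1 to 4 and at 365, 377, 383 and 383 CPM in control 1 to 4. All cKO libraries lay below all controls, and the mean fell from 377 ± 8.26 to 319.8 ± 9.16 CPM (SD, n = 4), 84.8% of control, with a log2 fold change of −0.24 (SE 0.052, adjusted p = 0.0404). Cyc1 (ENSMUSG00000022551, chr15:76343523-76346260, plus strand), the heme-bearing cytochrome c1, had the lowest estimate of the complex, at 304, 347, 369 and 312 CPM in cKO against 412, 377, 388 and 414 CPM. These groups did not overlap either, and the log2 fold change of −0.26 (SE 0.067) missed the threshold with an adjusted p of 0.0887.

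Uqcrfs1, the Rieske iron-sulfur protein, stood at 188, 201, 226 and 207 CPM in cKO and at 239.9, 231, 230.4 and 242 CPM in controls, without overlap (log2 fold change −0.20, SE 0.060, adjusted p = 0.139). Uqcrc2, the partner core protein of Uqcrc1, was measured at 359.8, 353, 394 and 339 CPM against 393, 382, 409.5 and 399 CPM. Here cKO 3 lay within the range of the controls (log2 fold change −0.13, adjusted p = 0.357). The small subunits lay nearer to 0: Uqcr10 at −0.08, Uqcrq at −0.07 and Uqcrh at −0.02, with Uqcrb at 0.00 and Uqcr11 at 0.03 as the highest of the 9. The median of complex III was −0.08, and between −0.13 and −0.05 with 1 library left out.

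All 4 genes of complex II, succinate dehydrogenase, had lower estimates, by a similar amount. Sdhb, the iron-sulfur subunit, was measured at 249, 249, 274 and 243 CPM in cKO 1 to 4 and at 289.7, 274, 276 and 282 CPM in control 1 to 4. Only cKO 3 reached the range of the controls, and the log2 fold change was −0.15 (SE 0.056, adjusted p = 0.265). The membrane anchors gave like values, with Sdhd at −0.15 (SE 0.067, adjusted p = 0.350) and Sdhc at −0.14 (SE 0.058, adjusted p = 0.298).

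Sdha, the flavoprotein that oxidises succinate, had the smallest difference of the complex, from 587 ± 13.3 CPM in controls to 552 ± 26.4 CPM in cKO (SD, n = 4, log2 fold change −0.09, adjusted p = 0.555). None of the 4 passed the threshold in edgeR or DESeq2, and 3 had an unadjusted p under 0.05 in edgeR. The promoter stretches of Sdha and Sdhd printed above are those with 3 NRF1 matches and with matches to both NRF1 and GABPA. The window of Sdhb held 0 NRF1 matches and 1 GABPA match, and a link of these matches with the estimates was not tested. The median of the complex was −0.14, and between −0.19 and −0.11 with 1 library left out.

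In complex I, 31 of 38 genes had lower estimates with a median of −0.06, and 0 passed the threshold in edgeR or DESeq2. An unadjusted p under 0.05 in edgeR was found for 5, against 12.8% of all genes and 20.7% of those with a mean of at least 20 CPM. All 7 catalytic core subunits encoded in the nucleus were among the lower ones, with a median of −0.08. Ndufs7, an iron-sulfur subunit at the ubiquinone site, was lowest at 92.4, 96.0, 104 and 106 CPM in cKO against 120.1, 112, 107 and 111 CPM in controls. Its groups did not overlap, with a log2 fold change of −0.18 (SE 0.060, adjusted p = 0.189). Ndufs3, its neighbour in the peripheral arm, was measured at 106, 108, 122 and 111 CPM against 133, 122, 124 and 127 CPM, with overlap through cKO 3 (log2 fold change −0.18, SE 0.058, adjusted p = 0.178).

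Ndufv1, which binds NADH and the flavin, was the most even gene of complex I among the controls at 249, 249, 252 and 248 CPM, and all cKO libraries lay below, at 228, 234, 244 and 229.8 CPM. That difference was small at −0.09 (SE 0.050, adjusted p = 0.470). Other core subunits were Ndufs1 at −0.08, Ndufv2 at −0.07 and Ndufs8 at −0.06, each with overlapping groups. Among the 28 accessory subunits 23 were lower, from Ndufc2 at −0.16 (adjusted p = 0.234) up to Ndufv3 at 0.16.

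Ndufv3, an accessory subunit beside Ndufv1, had the highest estimate of complex I, with 147, 136, 139 and 163 CPM in cKO and 139, 122, 122 and 141 CPM in controls. cKO 2 and cKO 3 lay within the range of the controls (SE 0.069, adjusted p = 0.338). Ndufa7, next highest, was at 71.7, 70.2, 73.3 and 77.7 CPM against 75.1, 68.4, 68.2 and 68.3 CPM (log2 fold change 0.07, adjusted p = 0.729). The remaining 3 symbols, Ndufs6b, Ndufb4c and Ndufa11b, are copies of other subunit genes with means under 1 CPM. The median of complex I was between −0.10 and −0.03 with 1 library left out.

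**Figure D4:**
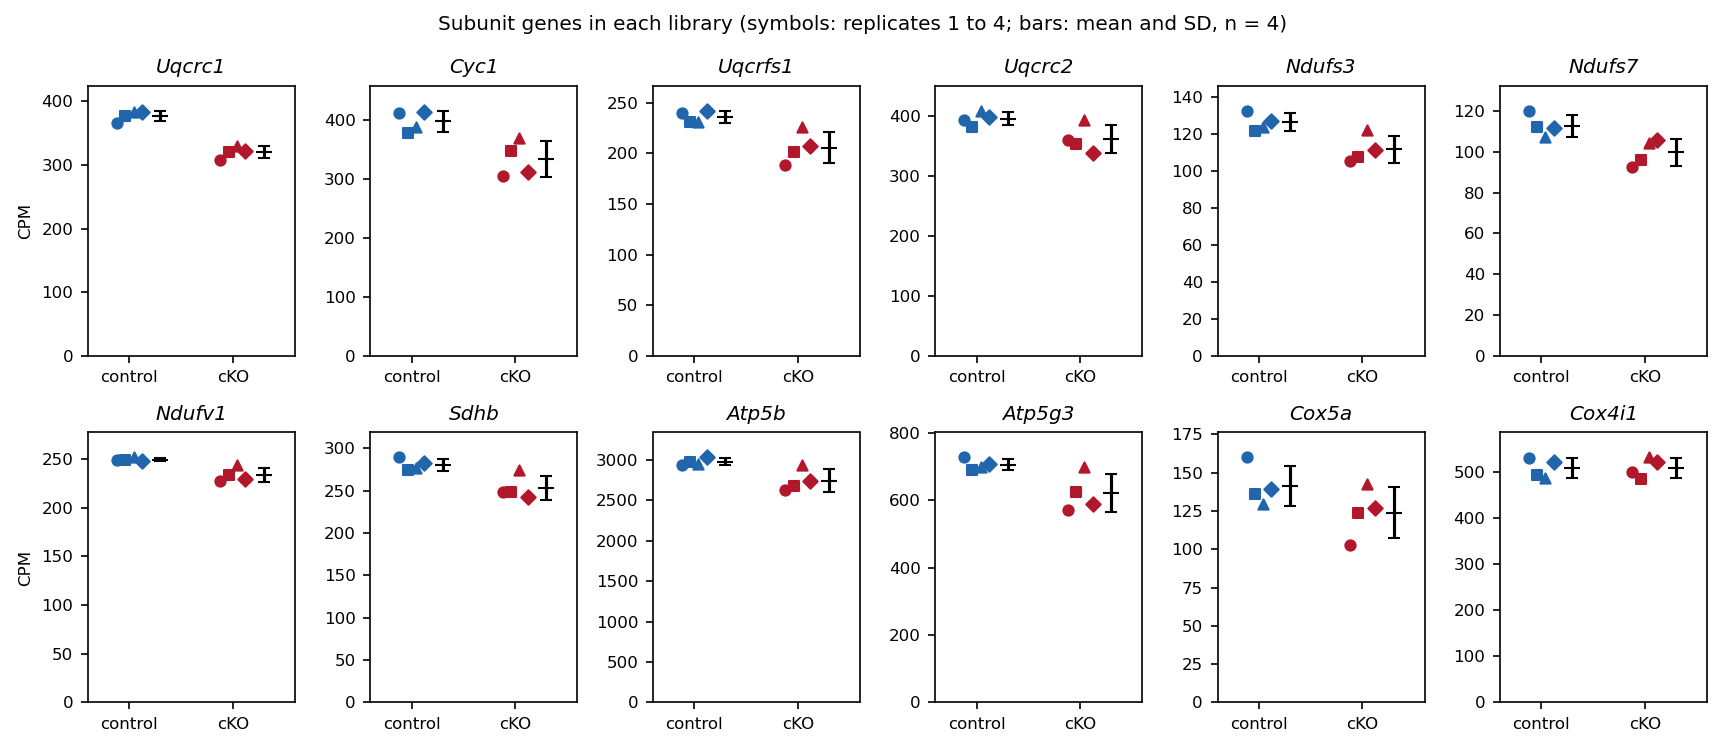
CPM of 12 subunit genes in each library (vertical axes start at 0), controls in blue and cKO in red, with the mean and SD of the 4 libraries beside them. Uqcrc1, Cyc1, Uqcrfs1, Ndufs7, Ndufv1 and Atp5b have all cKO libraries below all controls, by margins that are small against their level, and Cox4i1 has overlapping groups.

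In complex V, 16 of 17 genes had lower estimates, most of them by little, and 0 passed the threshold in edgeR or DESeq2, with 3 at an unadjusted p under 0.05 in edgeR. The median was −0.12 over the 5 genes of F1, which holds the catalytic head and the central stalk. Over the 9 genes of the other stalk and the membrane part it was −0.02. Atp5e of F1 stood at −0.04, nearer to the latter. This is a description of estimates and was not tested. Atp5b was measured at 2621, 2671, 2939 and 2732 CPM in cKO and at 2940.2, 2976, 2952 and 3033 CPM in controls. The highest cKO library stayed just under the lowest control, and the log2 fold change was −0.12 (SE 0.057, adjusted p = 0.402). Atp5a1 was at 2154, 2159, 2394 and 2131 CPM against 2382, 2393, 2427 and 2476 CPM, with cKO 3 inside the control range (log2 fold change −0.13, adjusted p = 0.350).

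Atp5d, the delta subunit of the central stalk, was at 260.2, 299, 320.1 and 325 CPM against 349, 329.5, 326 and 330.1 CPM, without overlap (log2 fold change −0.15, adjusted p = 0.371). Of the 3 genes that encode the same c subunit of the rotor ring, Atp5g3 was lowest, at 571, 625, 699.7 and 589 CPM against 728, 689, 697 and 708 CPM (log2 fold change −0.18, SE 0.065, adjusted p = 0.217). The others were Atp5g2 at −0.07 and Atp5g1 at −0.03. Atp5g3 gave 58.7% to 62.0% of the TPM of the 3 genes in cKO and 62.5% to 64.0% in controls, and Atp5g1 19.4% to 22.6% against 18.4% to 19.8%. At the other end, Atp5h (stalk subunit d) stood at 0.03 and Atp5k at −0.00, and the median of the complex was −0.05, or between −0.09 and −0.03 with 1 library left out.

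Estimates in complex IV were balanced, with 10 of 20 genes higher and a median of −0.01, and its difference from the other complexes was not tested. By edgeR 0 passed the threshold and 7 had an unadjusted p under 0.05, while DESeq2 called 2. Among its 11 common accessory genes 8 were lower. Cox5a was lowest of the better expressed members at 103, 123, 143 and 127 CPM against 160.2, 136, 129 and 139 CPM, with overlapping groups (log2 fold change −0.19, SE 0.087, adjusted p = 0.377). Cox8a gave −0.17, Cox6a1 −0.11 and Cox5b −0.08, also with overlap.

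Cox4i1, which regulates the enzyme in most tissues, was measured at 499, 485, 532 and 521 CPM in cKO and at 531, 494, 486 and 522 CPM in controls, a log2 fold change of 0.00 with an SE of 0.056. Cox7a2l, which takes part in supercomplex assembly, gave 0.02, and Cox6b1 0.03. Cox6c2, a low copy of Cox6c with a cKO mean of 4.16 and a control mean of 4.86 CPM, gave −0.22 (adjusted p = 0.543). With 1 library left out the median of complex IV lay between −0.04 and 0.02, so its sign was not fixed.

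Of the 7 tissue isoforms of complex IV, 6 had higher estimates in cKO, with a median of 0.38, or 0.27 without cKO 4. The cKO libraries lay wholly above the controls for 4 of them, where the background was 3.14% of all genes. Cox7a1 (ENSMUSG00000074218, chr7:30184144-30186078, plus strand), the heart and muscle isoform of subunit VIIa, was at 35.4, 32.7, 34.3 and 36.7 CPM in cKO and at 31.9, 26.9, 26.1 and 28.9 CPM in controls. The lowest cKO library lay above the highest control, and the log2 fold change of 0.29 (SE 0.072) missed the threshold with an adjusted p of 0.0766. Cox8b (ENSMUSG00000025488, chr7:140898945-140900446, minus strand), the heart and muscle isoform of subunit VIII in mice, was at 5.44, 4.97, 4.54 and 7.57 CPM against 3.86, 3.67, 4.03 and 2.82 CPM. It also did not overlap, with a log2 fold change of 0.65 (SE 0.172, adjusted p = 0.0949).

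Cox6a2, the heart and muscle isoform of subunit VIa, was at 114, 113, 129.6 and 144 CPM in cKO and at 112, 101, 112 and 113 CPM in controls. The groups touched without crossing, with cKO 2 at 112.9 and control 4 at 112.8 CPM (log2 fold change 0.19, SE 0.074, adjusted p = 0.269). DESeq2, run as an alternative, called Cox7a1 with an adjusted p of 0.00775 and Cox8b with 0.0113, both higher in cKO.

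Because isoforms of a subunit replace each other, their share of the summed TPM was also read. Cox6a2 made up 28.6% to 31.5% of Cox6a transcripts in cKO and 24.04% to 27.4% in controls. Cox7a1 made up 12.9% to 14.9% of the Cox7a set against 11.2% to 11.99%, and Cox8b 1.96% to 3.20% of Cox8 against 1.26% to 1.71%. All 3 shares were higher in every cKO library than in any control. The same held for the share of Cox4i2 in Cox4, at 0.782% to 3.22% in cKO and 0.635% to 0.718% in controls. In each pair the common isoform remained the main transcript, as Cox6a1 did with 70.2 ± 1.30% in cKO and 74.5 ± 1.55% in controls (SD, n = 4).

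**Figure D5:**
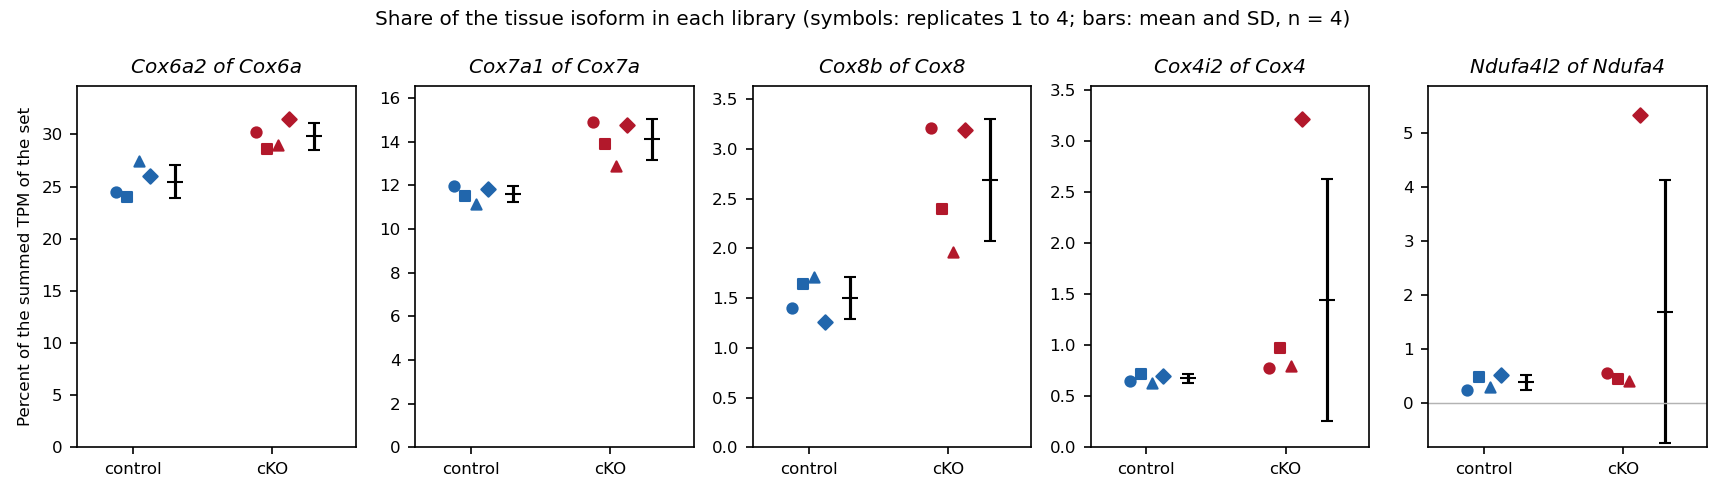
Share of the tissue isoform in the summed TPM of its isoform set (vertical axes, percent, each with its own range) in each control (blue) and cKO (red) library, with the mean and SD of the 4 libraries. For Cox6a2, Cox7a1, Cox8b and Cox4i2 all cKO libraries sit above all controls. For Cox4i2 and Ndufa4l2 the cKO mean is set by cKO 4 (red diamond), at 3.22% and 5.34%.

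Cox4i2 and Ndufa4l2, isoforms known to be induced by low oxygen, had the highest estimates of all members, which rested on 1 library. Ndufa4l2 was measured at 2.04, 1.81, 1.74 and 19.2 CPM in cKO 1 to 4 and at 0.961, 1.83, 1.22 and 2.16 CPM in control 1 to 4. Leaving out cKO 4 took its log2 fold change from 2.02 (SE 0.644, adjusted p = 0.165) to 0.29 (adjusted p = 0.768). Cox4i2 was at 4.17, 4.99, 4.31 and 17.6 CPM against 3.55, 3.61, 3.18 and 3.67 CPM, so that all cKO libraries lay above the controls also without cKO 4. Its log2 fold change went from 1.15 (SE 0.361, adjusted p = 0.156) to 0.37 (adjusted p = 0.321) without cKO 4.

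Cox6b2, known from testis, was likewise highest in cKO 4, at 9.14 CPM against 3.76 to 5.18 CPM in the other cKO libraries and 4.03 to 5.07 CPM in controls. Its log2 fold change went from 0.38 (adjusted p = 0.491) to 0.079 (adjusted p = 0.917) without cKO 4. Cox7b2 had 0 counts in the cKO libraries and 4, 0, 10 and 0 counts in control 1 to 4. Against a floor of 3 counts over the group this is at least 4.53-fold lower, a bound that rests on control 3: without it 4 counts remain, the bound is 1.78-fold, and the gene no longer reaches the count filter. With the gene at the bound from all libraries, the median of complex IV stayed at −0.01.

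Transcript length moved with the estimates. Among the 77 members that are neither copies nor tissue isoforms, the 31 with transcripts of at least 1000 bases had a median of −0.09 and the 46 shorter ones −0.06. Across these genes the log2 fold change had a Pearson correlation of −0.27 and a Spearman correlation of −0.36 with log2 length, over genes measured in the same 8 libraries. Where a trend with length and GC content over all genes was removed, the medians were −0.09 and −0.07 and the correlations −0.12 and −0.19, and 70 of the 88 members had lower estimates. Among all genes with a mean of at least 20 CPM the medians of the 2 length classes were −0.03 and −0.03.

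Assembly factors and citric acid cycle genes, which build or feed the chain, also had mostly lower estimates, and their difference from the members was not tested. Of 51 assembly factors measured, 47 had lower estimates with a median of −0.11, and 0 were called. An unadjusted p under 0.05 in edgeR was found for 11, all of them lower. The background for such a p with a lower estimate was 6.2% of all genes and 12.1% of those with a mean of at least 20 CPM. By complex the medians were −0.13 for 16 factors of complex I, −0.05 for 4 of complex II, −0.10 for 6 of complex III, −0.08 for 21 of complex IV and −0.19 for 4 of complex V. Ndufaf6 was lowest for complex I at −0.31 (adjusted p = 0.107) and Nubpl, which inserts iron-sulfur clusters, highest at 0.02. Sdhaf1 (−0.18) and Sdhaf3 (−0.03) bounded the complex II list, and Lyrm7 (−0.14) and Uqcc3 (−0.01) that of complex III. Cmc2 (−0.25, adjusted p = 0.173) and Cox17 (0.02), a copper chaperone, bounded the complex IV list. Atpaf1, which assembles the F1 head, was lowest for complex V at −0.30 (adjusted p = 0.112) and Atpaf2 highest at −0.10.

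The citric acid cycle, which supplies NADH and succinate, gave 12 of 13 genes with a lower estimate and a median of −0.13. None was called, 8 had an unadjusted p under 0.05 in edgeR, all lower, and 4 did not overlap, with cKO below control. Among all genes with a mean of at least 20 CPM, 12.1% had such a p and were lower, and 7.76% lay wholly below the controls. Suclg2, of succinyl-CoA ligase, was the lowest of the 13 at −0.21 (SE 0.054, adjusted p = 0.0824). Of the 13 subunits encoded by the mitochondrial genome, 7 had lower and 6 higher estimates, with a median of −0.03, 0 called and 0 with an unadjusted p under 0.05. They ran from mt-Co1 at −0.12 (adjusted p = 0.640) to mt-Co3 at 0.20 (adjusted p = 0.699). The count and TPM tables disagree on 6 of them (mt-Co2, mt-Co3, mt-Atp6, mt-Atp8, mt-Nd3 and mt-Nd4l), which had means of 0.632 to 14.6 CPM and yet 923 to 8138 TPM, so that their levels and estimates are uncertain. The 7 others, at 865 to 12120 CPM, had 5 lower estimates and a median of −0.06, and by mean TPM 10 of the 13 were lower in cKO. The cause of the disagreement was not tested.

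Marker RNA of several cell types also differed between the groups. Of 15 cardiomyocyte markers 11 had lower estimates with a median of −0.05, 0 were called by edgeR and 3 had an unadjusted p under 0.05. Their summed level was 40564 to 42501 CPM in cKO and 41165 to 45113 CPM in controls, so the defining markers of the labelled tissue were high in every library. Their median by library was −0.05, −0.09, 0.02 and −0.14 in cKO and 0.04, −0.04, −0.04 and 0.05 in controls, with cKO 3 again the highest and cKO 4 the lowest cKO library. Endothelial and endocardial markers had higher estimates in 12 of 12 (median 0.39, 6 called: Pecam1, Cdh5, Flt1, Tie1, Emcn and Nfatc1), with a summed level of 1785 to 2210.3 CPM in cKO and 1398 to 1648 CPM in controls. By library their median was 0.59, 0.15, 0.19 and 0.53 in cKO and 0.07, 0.04, −0.15 and 0.04 in controls, so cKO 1 and cKO 4 stood highest.

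Macrophage markers had higher estimates in 10 of 10 (median 2.19, with C1qb and C1qc called) at a low summed level of 10.01 to 40.6 CPM against 4.85 to 11.2 CPM. Here too cKO 1 and cKO 4 stood highest, with medians of 3.31, 1.25, 1.14 and 2.10 in cKO and 0.05, 0.93, −0.26 and −0.52 in controls. Erythroid genes had higher estimates in 10 of 10 (median 0.31, 0 called by edgeR, 1 with an unadjusted p under 0.05) with 1410.1 to 4911 CPM against 1536 to 4753 CPM. Epicardial markers had higher estimates in 2 of 7 (median −0.16), cushion mesenchyme markers in 5 of 7 (median 0.12) and liver genes in 1 of 8 measured (median −1.29). In these 3 lists edgeR called 0, and 2, 0 and 4 genes had an unadjusted p under 0.05. Liver genes were low, at a summed 14.4 to 21.3 CPM in cKO and 15.4 to 45.6 CPM in controls. Control 1 stood apart for them: by library their median was −0.59, −0.82, −0.93 and −0.36 in cKO and 1.49, −0.93, −0.07 and −0.63 in controls. The part of the marker shifts in the oxidative phosphorylation values was not tested. In bulk tissue, fewer cardiomyocytes, less RNA per cardiomyocyte and more RNA from other cells cannot be told apart. By counting nuclei in heart sections, over more than the sequenced stage, the paper found no significant effect of genotype on the cardiomyocyte share. A share of nuclei is not a share of RNA, and the count was not compared with the RNA here.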

How the data were processed

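Poly(A) TruSeq v2 libraries of ventricular RNA at E10.5 (4 cKO, 4 control) were sequenced by the authors on a NovaSeq X Plus. The methods name nf-core/rnaseq and GRCm39, and the submitters' processing notes list FastQC, Trim Galore 0.6.7, HISAT2 2.2.1, StringTie 2.2.1, featureCounts and DESeq2 without their roles; the strand setting is not given in the sources used here, so antisense or overlapping genes cannot be told apart. Raw counts per gene symbol, not normalized, and TPM per gene were deposited by the authors, with replicates kept apart. Positions in the TPM table are those of GRCm38: 83 of the 88 members start within 1000 bases of their RefSeq GRCm38 start and 2 of 88 of their GRCm39 start.

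Counts were tested with edgeR 4.0.16 in R 4.3.3 (quasi-likelihood F test, TMM normalization, condition as the only term) on the 26820 genes whose counts summed to 8 or more, with p adjusted over all of them after Benjamini and Hochberg and a threshold of 0.05. No member passed the second threshold of the methods, a fold change of at least 1.5 together with the adjusted p, against 0.365% of all genes. Library sizes for CPM were scaled by TMM, log2 CPM added a prior count of 2, and the SE was taken from the fold change and its F statistic. TPM served for levels and shares. Depth, at 47559845 counts or more per library, limits only the lowest members. Promoter windows came from RefSeq on GRCm38.p6 and were matched for 68 of the 88 members. Scripts were tested on simulated data.

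Members and lists (assembly factors, citric acid cycle, mitochondrially encoded subunits and 7 sets of cell type markers) were chosen with earlier results of these data known. Genes named in full were Pkn2, catalytic and core subunits, isoform sets, called members, and in each complex the 2 highest and 2 lowest estimates with a mean of at least 1 CPM. Each list is described by its counts and median, with its highest and lowest gene. Genes not found in the table were not analysed here. Some genes that this rule names are not reported here.

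Alternatives were DESeq2 1.42.0, edgeR with its size factors, no filter or filterByExpr, a block for the replicate number, removal of a trend with transcript length and GC content (loess span 0.3), both together, limma 3.58.1 on log2 TPM with pseudocounts of 1 and 0.1, erythroid genes left out, and each library left out in turn. The figures were drawn with matplotlib 3.10.9.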

Additional observations from a re-analysis of the deposited data

Results flagged for a closer look

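A library stood apart from the other 3 of its group, by the gap to its neighbour divided by the range of the group (above Dixon's 95% limit for 4 samples), in 8 of 102 groups examined, where chance gives about 1 in 20. In cKO 4, Ndufa4l2 (19.2 CPM, ratio 0.983) and Cox4i2 (17.6 CPM, ratio 0.939) lay far above the other cKO libraries. In cKO 3, Atp5a1 (2394 CPM, ratio 0.892), the median over all members (ratio 0.833) and the median over complex I (ratio 0.865) lay above those of the other cKO libraries. In control 1, Ndufa7 (75.1 CPM, ratio 0.980) and Atp5d (349 CPM, ratio 0.830) lay above the other controls, and in control 2 Cox6a2 (101 CPM, ratio 0.936) lay below them. The cause of these gaps was not tested.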

How the results depend on the processing

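Complex II, the complex with the lowest median, and complexes I, III and V kept a negative median under the alternatives run, while that of complex IV changed sign within the spread between libraries. The number of genes called over the whole table was 867 with DESeq2, 878 with no filter, 380 with the replicate block, 378 with the length and GC trend removed, 468 with both, 1 with limma on log2(TPM + 1) and 7 with limma on log2(TPM + 0.1), and 67 to 744 with 1 library left out. Members called were 5 with DESeq2, 6 with no filter (Cyc1, Uqcrc1, Cox4i2, Cox7a1, Cox8b and Ndufa4l2) and 2 with the length and GC trend removed. They were 0 with the replicate block (19 with an unadjusted p under 0.05), 0 with limma at either pseudocount (14 and 13), and 0 to 6 with 1 library left out. The replicate numbers did not pair the samples: over 14302 genes, libraries of the same number had correlations of −0.19, −0.03, 0.01 and −0.14 between their deviations from the group means. The block took the call of Uqcrc1 (adjusted p = 0.0612), and together with the length and GC trend removed gave 1 call.

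Of 807 combinations of 45 named genes and 18 alternatives, 748 kept their direction and side of the threshold, 9 lost and 15 gained the threshold, and 35 changed sign, in 9 genes with estimates near 0. With limma at both pseudocounts Atp5g1 stood at 0.045, Cox7b at 0.016 and Atp5k at 0.016. Atp5k stood at 0.0048 with DESeq2 and with its size factors, 0.0090 with filterByExpr and 0.0057 with no filter, and Cox4i1 at −0.019 with the length and GC trend removed, with or without the block. With 1 library left out, the estimates ran from −0.017 to 0.036 for Cox4i1, −0.0020 to 0.069 for Cox6b1, −0.0081 to 0.073 for Cox7a2l, −0.048 to 0.021 for Cox7b, −0.056 to 0.044 for Atp5g1, −0.040 to 0.053 for Uqcrb, −0.013 to 0.082 for Uqcr11, −0.053 to 0.056 for Atp5k and −0.011 to 0.064 for Atp5h. The cause of these moves was not tested. With 4 libraries a group the SE of a member was 0.064 at the median, and differences of that size cannot be resolved. A difference of several SE could still miss the threshold of edgeR, as Cyc1 did at −0.26 (SE 0.067, adjusted p = 0.0887).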

Other observations

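The high Ndufa4l2 and Cox4i2 of cKO 4 were set beside the rest of that library. Among 14302 genes with a mean of at least 1 CPM, Ndufa4l2 ranked 1 and Cox4i2 ranked 9 by the log2 ratio of cKO 4 to the mean of the other cKO libraries (3.06 and 1.86, with 0.5 CPM added), and Cox6b2 ranked 108 (0.89). Genes known to respond to low oxygen were then read, chosen after these values were seen. Vegfa, an angiogenic growth factor, was at 198, 173, 164 and 269 CPM in cKO 1 to 4 and at 145 to 161 CPM in controls (log2 fold change 0.40, adjusted p = 0.119). Egln3, a prolyl hydroxylase, was at 17.2, 13.9, 11.7 and 30.01 CPM against 8.33 to 12.8 CPM (0.74, adjusted p = 0.130), and Bnip3, a mitophagy receptor, at 97.9, 95.6, 77.7 and 152 CPM against 69.2 to 102 CPM (0.35, adjusted p = 0.368).

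Pdk1, which restrains pyruvate dehydrogenase, was at 279.6, 278, 248 and 393 CPM against 239.7 to 295 CPM, and Ldha, of lactate dehydrogenase, at 2612, 2797, 2491 and 3283 CPM against 2232 to 2896 CPM. All 5 were highest in cKO 4 of the 8 libraries, as were 10 of the 88 members. The share of all genes that were highest in cKO 4 was not counted. For Vegfa the other cKO libraries also lay above all controls. Slc2a1, a glucose transporter, was at 694, 690, 575 and 825 CPM in cKO 1 to 4 and at 762 to 901 CPM in controls. It was thus highest in cKO 4 among the cKO libraries, while its highest level of the 8 libraries was in control 4. Control 4 was also the highest control for Egln3, Bnip3, Pdk1 and Ldha, and control 2 for Vegfa. None of the 6 passed the threshold by edgeR's test with all libraries, and none did without cKO 4, where the log2 fold change of Vegfa was 0.23 (adjusted p = 0.137) and that of Egln3 0.40 (adjusted p = 0.254). The cause of the pattern in cKO 4 was not tested.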
